A study of Mus musculus with 4 samples.

Results

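Voltage-gated sodium channel genes were followed in mouse cerebellum after dosing with clothianidin, a neonicotinoid insecticide that acts on nicotinic receptors, or with vehicle. The set was fixed by gene symbol and held 9 genes, the alpha subunit genes Scn1a, Scn2a, Scn8a, Scn9a and Scn3a, the beta subunit genes Scn2b, Scn3b and Scn4b, and the channel partner gene Fgf14. For 8 of them the platform annotation gave a feature, 1 probe set per gene, among 19505 genes named on the array. No probe set was named for Scn9a, which was not analysed here. The clothianidin group was 2 samples (replicates 6 and 7) from male C57BL/6N mice aged 10 weeks given 50 mg per kg per day by mouth for 4 days. The vehicle group was 2 samples (replicates 7 and 9) from males of the same strain and age given vehicle over the same 4 days. The mice of both groups ran the rotarod, a test of motor coordination, and the brain was taken straight afterwards, so both groups share that exercise. Each sample was hybridised to 1 Affymetrix whole-transcript array, and every value below is a log2 expression value or a difference of such values.

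Voltage-gated sodium channels open when a neuron depolarises and let in the sodium that drives the rising phase of the action potential. A channel is 1 large alpha subunit that forms the pore, joined by smaller beta subunits that are adhesion-like membrane proteins and tune gating and surface expression. The adult brain relies on the alpha subunits of Scn1a, Scn2a and Scn8a, while Scn3a is best known from the embryonic and newborn brain and Scn9a from peripheral sensory neurons. In the cerebellum, Purkinje cells fire fast and regularly with the help of a resurgent sodium current, in which the Scn8a channel, the beta subunit of Scn4b and the intracellular factor encoded by Fgf14 all take part. Loss of Fgf14 function in humans and mice causes ataxia.

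Scn2b and Scn4b lie side by side on chromosome 9 with 0 protein-coding genes between them in RefSeq, and on chromosome 2 Scn3a and Scn2a are likewise direct neighbours. The promoter windows of the beta subunit pair are shown, and no link between promoter sequence and the array values was tested. By the largest gap on any array between deviations from each gene's mean, Scn2b and Scn4b differed by 0.325. Scn2a and Scn3a differed by 0.90. Each window runs from 250 bases before to 50 bases after the gene start, on the + strand of GRCm38.p6, at chr9:45117626-45117925 for Scn2b and chr9:45138374-45138673 for Scn4b, from RefSeq. Capitals mark CpG dinucleotides.
Scn2b: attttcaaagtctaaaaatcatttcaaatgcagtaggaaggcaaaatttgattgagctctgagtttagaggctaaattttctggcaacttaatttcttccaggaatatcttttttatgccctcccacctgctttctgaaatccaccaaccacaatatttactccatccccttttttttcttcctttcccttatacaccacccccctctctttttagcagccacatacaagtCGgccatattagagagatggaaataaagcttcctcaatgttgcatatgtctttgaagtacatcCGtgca
Scn4b: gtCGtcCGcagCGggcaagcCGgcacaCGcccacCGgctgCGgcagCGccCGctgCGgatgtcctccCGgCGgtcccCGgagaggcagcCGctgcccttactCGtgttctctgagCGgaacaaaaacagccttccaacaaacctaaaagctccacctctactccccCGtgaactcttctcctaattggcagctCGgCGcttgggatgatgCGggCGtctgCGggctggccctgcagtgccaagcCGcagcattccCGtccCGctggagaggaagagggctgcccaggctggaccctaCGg
The Scn2b window held 2 CpG dinucleotides and 38.3% G or C, and the Scn4b window held 26 CpG and 66.3% G or C, where the median over 32851 RefSeq windows was 7 CpG. At least as many CpG as in Scn4b were found in 16.9% of windows, and at least as many as in Scn2b in 85.9%. RefSeq windows were at hand for 7 of the 9 genes, 9 windows in all. Scn8a had 38 and 12 CpG in its pair of windows, Fgf14 had 12, Scn1a had 5, Scn2a had 3 and 9, and Scn9a had 9. The GC box letters GGGCGG, searched on both strands, were in the Fgf14 window alone, and in 35.7% of all windows. The TATA box letters TATAAA were in 1 of the Scn2a windows and in 13.6% of all windows. The repressor REST binds an element that holds the letters CAGCACC and GGACAG, which were searched on both strands as well. The first was in none of the 9 windows and in 7.14% of all windows, and the second was in the Fgf14 window and in 1 of the Scn8a windows and in 22.2% of all windows. A match is only a match of letters, and the windows of Scn3a and Scn3b were not analysed here.

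The arrays were alike in scale, with medians of 6.49 and 6.5 with clothianidin and 6.5 and 6.54 with vehicle. Pearson's r over probe sets was 0.989 between the clothianidin arrays, 0.987 between the vehicle arrays and 0.986 to 0.989 across groups. Among the brightest 25% of probe sets by mean, the median deviation from a probe set's own mean was 0.10 on clothianidin replicate 6 and -0.02 on clothianidin replicate 7, against 0.05 on vehicle replicate 7 and -0.14 on vehicle replicate 9. Granule cell markers, checked because the tissue was labelled cerebellum (9 of 10 measured), averaged 15.9 and 15.4 with clothianidin and 15.5 and 15.3 with vehicle. The 4 measured forebrain markers averaged 5.08 and 5.59 with clothianidin and 5.30 and 5.36 with vehicle, and 2 or 3 of the 4 on each array lay within the range of 90% of olfactory and vomeronasal receptor probe sets, which stand here for silent genes. No measured granule cell or Purkinje cell marker lay in that range. Probe sets differ in binding, so these levels describe each list and do not rank them. Ttr, made in choroid plexus, stood apart on clothianidin replicate 7 at 13.96, against 6.38 on clothianidin replicate 6 and 5.70 and 5.67 with vehicle.

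The comparison asked whether sodium channel transcripts differed after short clothianidin exposure. The adult alpha subunit genes and 2 of the 3 beta subunit genes had nearly the same means in both groups, with log2 differences of 0.01 to 0.125. Scn3a had the largest difference of the 8 genes, -0.665, and Fgf14 and Scn4b followed with -0.37 and -0.285. By count 5 genes had positive and 3 had negative differences, their median being 0.03, and over all probe sets 48.1% were higher and 51.2% lower with a median of -0.01. None of the 8 passed an adjusted p of 0.05 in limma (each adjusted p = 0.997), as for 0% of the 22206 probe sets. At an unadjusted limma p under 0.05 stood 1 of the 8, Scn3a, where 4.23% of all probe sets did. The groups did not overlap for 2 of the 8, Scn3a and Fgf14, both lower with clothianidin. Over all probe sets 30.6% did not overlap, 15.5% lower and 15.1% higher, and the share of these genes is near that background. At 1.5-fold or more without overlap there was Scn3a, against 7.61% of all probe sets. For 7 of the 8 genes the arrays of 1 group differed among themselves by more than the groups did. The exception was again Scn3a, and 19.8% of all probe sets were such exceptions, a criterion chosen after the values were seen. With 2 arrays per group an exact two-sided permutation test cannot go below p = 0.333 for any of these genes.

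**Figure D1:**
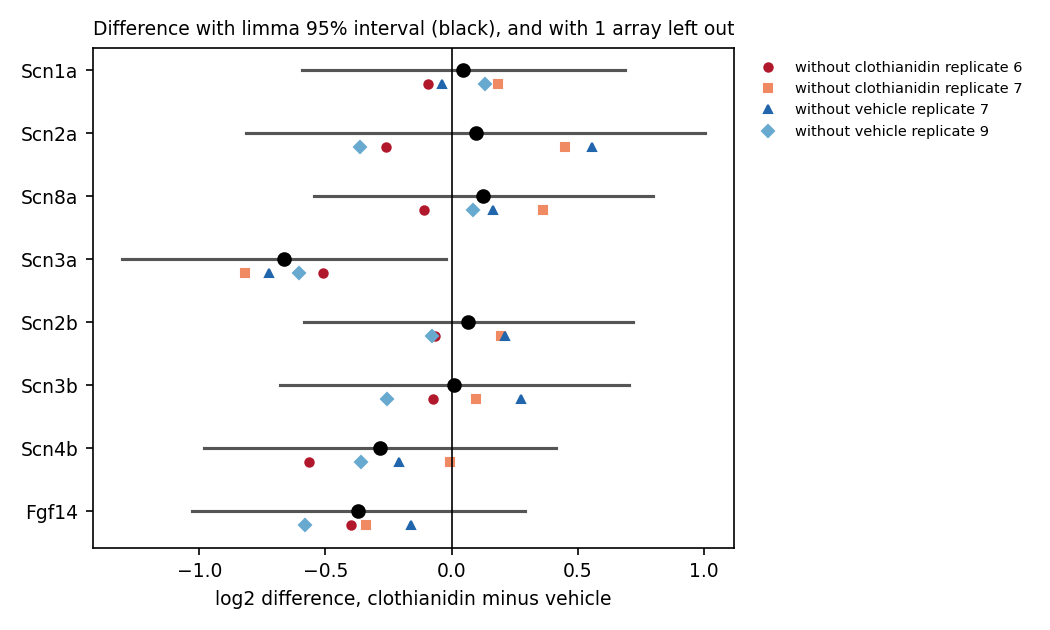
Log2 difference, clothianidin minus vehicle, for each sodium channel gene (black dots) with limma's 95% interval (lines), and the difference with each array left out (coloured marks). The interval of Scn3a, -1.31 to -0.02, is the one that does not hold 0, and the marks of 5 genes lie on both sides of 0.

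Scn1a, the main sodium channel gene of inhibitory interneurons and a gene of Purkinje cells, was at 12.42 and 12.14 for clothianidin replicates 6 and 7, against 12.15 and 12.32 for vehicle replicates 7 and 9, the order kept below. The groups overlapped fully, with a log2 difference of 0.045 (standard error 0.28). Its 95% interval of -0.59 to 0.68 still allows a 1.51-fold lower or a 1.61-fold higher level, so near-equal means do not show that the level was the same. Scn2a, which serves the axons of granule cells and other excitatory neurons, was at 14.69 and 13.98 with clothianidin and at 14.70 and 13.78 with vehicle. Clothianidin replicate 6 and vehicle replicate 7 were high together, and the other pair of arrays was lower by 0.71 in one group and 0.92 in the other. That made Scn2a the most variable of the 8 genes, with a difference of 0.095 and a 95% interval of -0.81 to 1.0. The sign of this difference rests on single arrays, at -0.365 without vehicle replicate 9, -0.26 without clothianidin replicate 6, 0.45 without clothianidin replicate 7 and 0.555 without vehicle replicate 7.

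Scn8a, the gene of the channel that carries much of the resurgent and persistent current of Purkinje cells, was at 11.72 and 11.25 with clothianidin and at 11.40 and 11.32 with vehicle. Both vehicle values lay between the clothianidin values, and the difference was 0.125 with a standard error of 0.29 and a 95% interval of -0.55 to 0.80. Without clothianidin replicate 6 it was -0.11 and without clothianidin replicate 7 it was 0.36. All 3 adult alpha subunit genes were higher on clothianidin replicate 6 than on clothianidin replicate 7, while on the vehicle arrays Scn1a went one way and Scn2a and Scn8a the other. After a further quantile normalization the differences of Scn1a and Scn2a turned to -0.038 and -0.023.

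**Figure D2:**
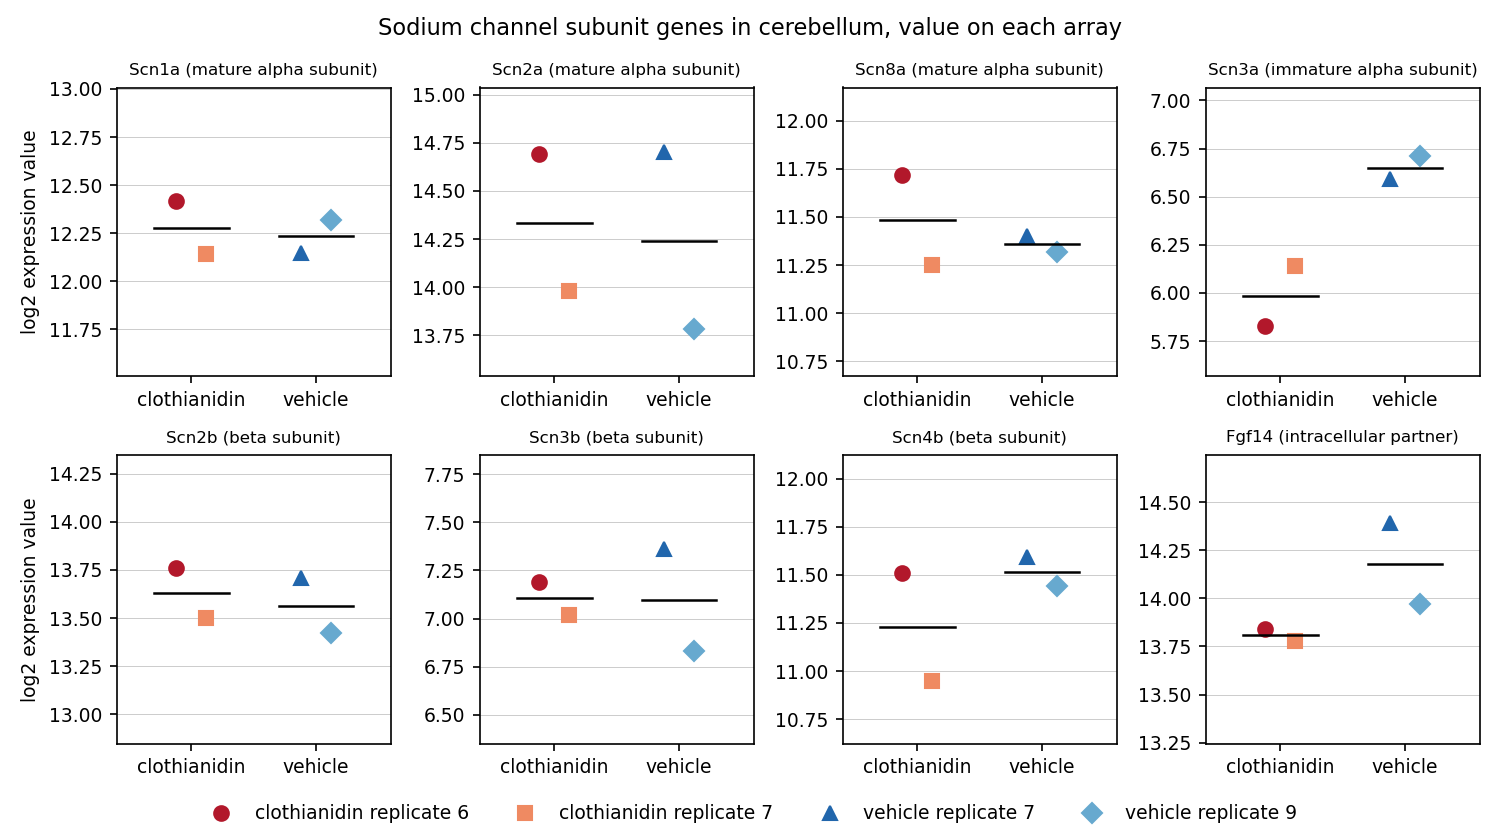
Log2 expression value of each gene on each of the 4 arrays, clothianidin on the left and vehicle on the right of each panel, with a line at the mean of each group. Every panel spans 1.5 log2 units. The groups are apart for Scn3a, 5.83 and 6.14 against 6.59 and 6.71, and narrowly for Fgf14, and overlap for the other 6 genes.

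Scn3a, the immature alpha subunit gene, was at 5.83 and 6.14 with clothianidin and at 6.59 and 6.71 with vehicle. Both clothianidin arrays lay below both vehicle arrays, with 0.45 between the nearest values. The means were 5.99 ± 0.22 with clothianidin and 6.65 ± 0.085 with vehicle (SD, n = 2 each). The log2 difference of -0.665 (standard error 0.28) corresponds to a 1.59-fold lower level, with a 95% interval of 1.02 to 2.47-fold lower. Limma's unadjusted p was 0.0436 and its adjusted p was 0.997, so the gene did not pass, and 6.17% of all probe sets differed by as much. With 1 array left out the difference ran from -0.82 to -0.51, and it was -0.636 after quantile normalization. The probe set was dim, since the 95th percentile of the olfactory and vomeronasal receptor probe sets was 5.85 and 6.10 with clothianidin and 5.98 and 6.37 with vehicle. Scn3a was just under that mark on clothianidin replicate 6, so by that mark its signal there could not be set apart from background. This leaves the size of the difference uncertain. The mark is stricter than the range of 90% of these probe sets used elsewhere, and Scn3a lay above that range on all 4 arrays. Median values of these receptor probe sets were 4.02 and 4.19 with clothianidin and 4.18 and 4.33 with vehicle. In bulk tissue, fewer cells of a type and less RNA per cell cannot be told apart. Of 5 measured markers of brainstem and cerebellar nuclei, 4 were lower with clothianidin, though 2 of 5 without clothianidin replicate 6 or without vehicle replicate 9. Their largest differences had opposite signs, -1.02 for Slc17a6 and 0.925 for Th, and Tph2 at -0.705 had overlapping groups. The list averaged 6.29 and 6.64 with clothianidin and 6.61 and 6.85 with vehicle. Of these, Hoxb5 and Hoxb3 lay within the receptor range on all 4 arrays, and the part of such cells in the Scn3a values was not tested. Oligodendrocyte markers also stood lower, all 9 measured of 10, 2 of the 9 without overlap, where 15.5% of all probe sets were lower without overlap. Their median difference was -0.19 and ran from -0.40 to -0.15 with 1 array left out. The markers lower were 7 of 9 without clothianidin replicate 7, 6 of 9 without vehicle replicate 7 and 8 of 9 without vehicle replicate 9. That list averaged 12.2 and 12.1 with clothianidin and 12.6 and 12.3 with vehicle, with no marker in the receptor range, and its part in the Scn3a and Fgf14 values was not tested. Endothelial markers were lower for 5 of 6, with a median of -0.19 that was 0.165 without vehicle replicate 7. Microglia markers were lower for 6 of 8, and for 4 of 8 without clothianidin replicate 6. Granule cell markers were higher for 6 of 9 measured and Bergmann glia and astrocyte markers for 5 of 8. Interneuron markers were higher for 8 of 10, and for 4 of 10 without clothianidin replicate 6. The part of these lists was not tested either. Of the oligodendrocyte precursor markers 3 of 4 were measured, and they averaged 6.81 and 6.41 with clothianidin and 7.27 and 6.62 with vehicle. They did not move together, with differences of -1.005 for Enpp6, -0.065 for Cspg4 and 0.065 for Gpr17.

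Scn2b encodes a beta subunit that is bound covalently to the alpha subunit and raises its surface density. It was at 13.76 and 13.50 with clothianidin and at 13.71 and 13.42 with vehicle, so each group held a higher and a lower array in nearly the same places. The difference was 0.065 with a 95% interval of -0.59 to 0.72, and after quantile normalization it was -0.027. Scn3b, which encodes a beta subunit held without a covalent bond, was at 7.19 and 7.02 with clothianidin and at 7.36 and 6.83 with vehicle. The vehicle values enclosed the clothianidin values, and the difference of 0.01 was the smallest of the 8 genes, with a 95% interval of -0.68 to 0.70. Scn4b, whose protein has a cytoplasmic tail able to block the open channel and so to give resurgent current, was at 11.51 and 10.95 with clothianidin and at 11.59 and 11.44 with vehicle. Here only clothianidin replicate 7 was low, while clothianidin replicate 6 lay between the vehicle arrays. The means were 11.23 ± 0.40 with clothianidin and 11.52 ± 0.11 with vehicle (SD, n = 2 each), and the difference was -0.285 with a 95% interval of -0.98 to 0.41. It was -0.005 without clothianidin replicate 7 and -0.565 without clothianidin replicate 6.

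Most measured markers of Purkinje cells, the neurons best known for Scn4b, did not follow its direction. Of 8 measured Purkinje markers 6 were higher with clothianidin and 5 of those without overlap, where 15.1% of all probe sets were higher without overlap. The list averaged 14.8 and 15.1 with clothianidin and 14.7 and 14.7 with vehicle. Pcp2, with the largest difference of the list at 0.68, was at 16.68 and 17.18 with clothianidin and at 16.40 and 16.10 with vehicle. Foxp2 (-0.225) and Slc1a6 (-0.06) were lower with clothianidin. For Car8 and Ppp1r17 the nearest values of the groups were only 0.05 apart. The array with the lowest Scn4b was the one with the highest Purkinje average and also the one with high Ttr, and the part of these in the Scn4b values was not tested.

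Fgf14 encodes an intracellular fibroblast growth factor homologous factor that binds the tail of sodium channel alpha subunits. It was at 13.84 and 13.78 with clothianidin and at 14.39 and 13.97 with vehicle. Both clothianidin arrays lay below both vehicle arrays, though by no more than 0.13 between the nearest values. The means were 13.81 ± 0.042 with clothianidin and 14.18 ± 0.30 with vehicle (SD, n = 2 each), a difference of -0.37 with a standard error of 0.29 and a 95% interval of -1.03 to 0.29. Limma's unadjusted p was 0.231, and 26.1% of all probe sets differed by as much. The size rested on vehicle replicate 7, since the difference was -0.16 without it and -0.58 without vehicle replicate 9. After quantile normalization it was -0.48. The related factor genes Fgf11, Fgf12 and Fgf13 had differences of -0.24, 0.24 and 0.065, each with overlapping groups. Fgf11 was at -0.085 without clothianidin replicate 7, Fgf12 at 0.075 without clothianidin replicate 6, and Fgf13 ran from -0.16 to 0.29 with 1 array left out.

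Probe sets differ in how strongly they bind their target, so the values of different genes were not ranked against each other, and classes were compared by how each gene deviated from its own mean over the 4 arrays. The adult alpha subunit genes (Scn1a, Scn2a and Scn8a) deviated on average by 0.29 and -0.20 on clothianidin replicates 6 and 7, against 0.09 and -0.18 on vehicle replicates 7 and 9. The beta subunit genes deviated by 0.13 and -0.20 with clothianidin and by 0.20 and -0.13 with vehicle. Both classes thus had a high and a low array in each group. Scn3a had another pattern, at -0.49 and -0.18 with clothianidin and at 0.27 and 0.39 with vehicle.

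Taken within each array, the adult alpha subunit genes relative to Scn3a stood at 0.775 and -0.022 with clothianidin and at -0.178 and -0.575 with vehicle, all relative to the mean over the arrays. The groups did not overlap, and the log2 ratio was 0.75 higher with clothianidin, but 0.355 without clothianidin replicate 6 and 1.15 without clothianidin replicate 7. Relative to Fgf14 the same class stood at 0.44 and 0.016 with clothianidin and at -0.30 and -0.16 with vehicle, a difference of 0.46 that was 0.245 without clothianidin replicate 6. Relative to the beta subunit genes it stood at 0.16 and 0.001 with clothianidin and at -0.10 and -0.056 with vehicle, a difference of 0.16 that was 0.08 without clothianidin replicate 6. The exact two-sided permutation p was 0.333 for each of these ratios, the smallest that 2 against 2 arrays can give.

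**Figure D3:**
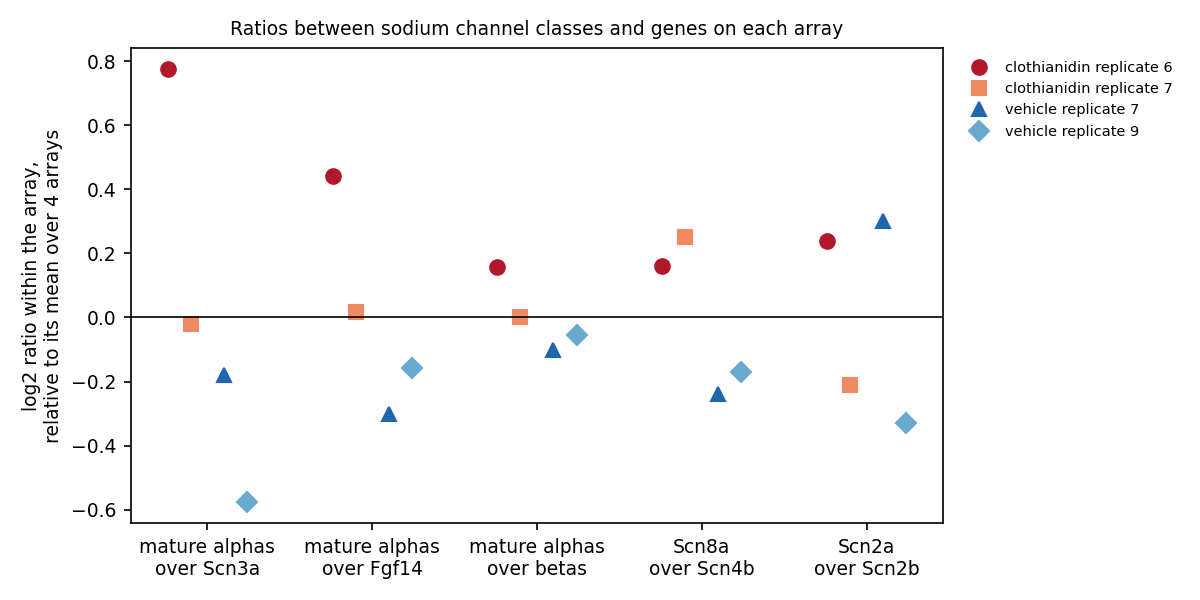
Log2 ratios within each array, each relative to its own mean over the 4 arrays, for classes and pairs of sodium channel genes, with clothianidin arrays left of vehicle arrays. For Scn8a over Scn4b the clothianidin arrays are at 0.16 and 0.25 and the vehicle arrays at -0.24 and -0.17, while for Scn2a over Scn2b the groups overlap.

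Among all 28 pairs of the 8 genes, the within-array ratio separated the groups for 11 pairs, or 39.3%, where 32.2% of all pairs of named genes on the array did so. A difference larger than the gap between the arrays of either group was found for 10 pairs, or 35.7%, against 20.8% of all pairs of named genes. The pairs were examined after the values of single genes were seen. They share genes and are not independent, and each of the 11 held Scn3a, Scn4b or Fgf14. The ratio of Scn8a to Scn4b, singled out after its values were seen because both genes act in resurgent current, had the closest arrays within groups of the 11. It stood at 0.16 and 0.25 with clothianidin and at -0.24 and -0.17 with vehicle, and was 0.41 higher with clothianidin. It ran from 0.365 to 0.455 with 1 array left out and was 0.415 after quantile normalization. The narrow range follows from the close arrays within groups, already seen when the pair was singled out, and is no separate test. Within each group both genes were higher on the same array, and their ratio spread less than either gene did. That order was common among the 8 genes, of which 7 were higher on clothianidin replicate 6 than on clothianidin replicate 7. On the vehicle arrays 6 of the 8 were higher on replicate 7 than on replicate 9. A ratio shows that the 2 values moved unequally and does not say which of them did. The neighbouring genes Scn2b and Scn4b, whose promoter windows were shown, had a ratio of 0.025 and 0.325 with clothianidin and of -0.105 and -0.245 with vehicle. The difference of 0.35 was 0.20 without clothianidin replicate 7 and 0.50 without clothianidin replicate 6.

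By the largest gap on any array between deviations from the mean, over 4 arrays and 44 other genes of the set and the wider list below, the genes nearest to Scn8a were Gsk3b, Slc8a1 and Nedd4, with gaps of 0.058, 0.088 and 0.093. Nearest to Scn4b were Celf4, Fgf11 and Nrcam, with gaps of 0.055, 0.148 and 0.150. Within the set the closest pair was Scn8a and Scn2b at 0.135, and the farthest was Scn2a and Scn3a at 0.90. With 4 arrays these are descriptions of the values, which share the scale of each array.

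A wider list of 44 genes that act with sodium channels had 37 measured members, and the others were not analysed here. Of the 37, 26 had positive and 11 had negative differences, and their median was 0.19 beside -0.01 over all probe sets. This shift rested on single arrays. Without clothianidin replicate 6 the list had 19 positive and 17 negative differences and a median of 0.015, without vehicle replicate 9 the median was 0.105, and without clothianidin replicate 7 it was 0.305. None passed an adjusted p of 0.05 in limma, and 6 of 37 had an unadjusted p under 0.05, 5 higher and 1 lower, where 4.23% of all probe sets did. The groups did not overlap for 14, or 37.8% of the list, 10 higher and 4 lower, where 30.6% of all probe sets did not overlap, 15.1% higher and 15.5% lower. The median deviation of the list was 0.275 and -0.095 with clothianidin and 0.02 and -0.195 with vehicle, with clothianidin replicate 6 standing highest. The brightest 25% of all probe sets ranked the arrays in the same order, at 0.10 and -0.02 against 0.05 and -0.14. The list averaged 11.71 and 11.36 with clothianidin and 11.45 and 11.25 with vehicle, well above the array medians. The part of brightness in the shift of the list was not tested.

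Scaffold and adhesion genes that hold channels at the axon initial segment and node had 7 of 11 higher and a median of 0.37, which was 0.03 without clothianidin replicate 6, 0.65 without clothianidin replicate 7 and 0.165 without vehicle replicate 9. The spectrin gene Sptan1, which encodes part of the membrane skeleton under the axon, was at 14.71 and 14.36 with clothianidin and at 13.29 and 13.90 with vehicle, a difference of 0.94 (limma unadjusted p = 0.0184, adjusted p = 0.997). Every clothianidin value lay above every vehicle value. Cntn2 and Cntnap2 encode a partner pair of adhesion proteins that gathers potassium channels beside the node, and both were higher on the clothianidin arrays without overlap. Cntn2 was at 12.80 and 12.31 with clothianidin and at 11.73 and 11.92 with vehicle, and its difference of 0.73 was 0.485 without clothianidin replicate 6. Cntnap2 was at 10.06 and 9.41 with clothianidin and at 9.05 and 8.81 with vehicle, and its difference of 0.805 was 0.48 without clothianidin replicate 6.

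Regulators of transcription and splicing had 9 of 10 higher and a median of 0.29. Without clothianidin replicate 6 that was 6 of 10 and a median of 0.105. Srrm4, which promotes the inclusion of neuronal microexons, had the largest difference of the list. It was at 7.93 and 7.50 with clothianidin and at 6.51 and 6.35 with vehicle, a difference of 1.28 with a standard error of 0.29 (limma unadjusted p = 0.00216, adjusted p = 0.997). Both clothianidin values lay well above both vehicle values, and the difference ran from 1.07 to 1.5 with 1 array left out. On vehicle replicate 9 Srrm4 was just under the 95th percentile of the receptor probe sets, 6.37, the mark used for Scn3a. The size of its difference is therefore uncertain. Nova2, a neuronal splicing factor gene, was at 7.35 and 6.53 with clothianidin and at 6.03 and 6.09 with vehicle, and its difference of 0.88 was 0.47 without clothianidin replicate 6. Rest, the repressor that keeps sodium channel genes such as Scn2a silent outside neurons, had a difference of 0.115 with overlapping groups, and was picked for mention after its value was seen. The number of measured genes of this role at an unadjusted limma p under 0.05 was 2 of 10, Srrm4 and Nova2, beside 4.23% of all probe sets.

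Among sodium handling genes 3 of 5 were higher, and 1 of 5 without clothianidin replicate 6. Nalcn, the gene of the sodium leak channel that sets resting potential, was at 10.58 and 11.50 with clothianidin and at 12.05 and 11.90 with vehicle, a difference of -0.935 (limma unadjusted p = 0.0294, adjusted p = 0.997) that was -0.475 without clothianidin replicate 6. Slc8a2, a sodium-calcium exchanger gene, was at 11.79 and 10.31 with clothianidin and at 10.57 and 10.53 with vehicle, so its difference of 0.50 came from clothianidin replicate 6 and turned to -0.24 without it. Kinases and ubiquitin ligases had 3 of 5 higher, and 1 of 5 without clothianidin replicate 6, with 0.455 for the casein kinase gene Csnk2a1 (0.17 without clothianidin replicate 6) and -0.25 for the protein kinase A gene Prkaca (-0.125 without vehicle replicate 7). The other measured alpha subunit genes were dim. Scn7a, whose protein senses sodium rather than voltage, was at 4.10 and 4.15 with clothianidin and at 4.91 and 4.44 with vehicle, and its difference of -0.55 was -0.315 without vehicle replicate 7. Scn10a and Scn11a, known from sensory neurons, had differences of 0.10 and 0.165. All 3 lay on every array within the range of 90% of the olfactory and vomeronasal receptor probe sets, so none was shown to be above background.

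**Figure D4:**
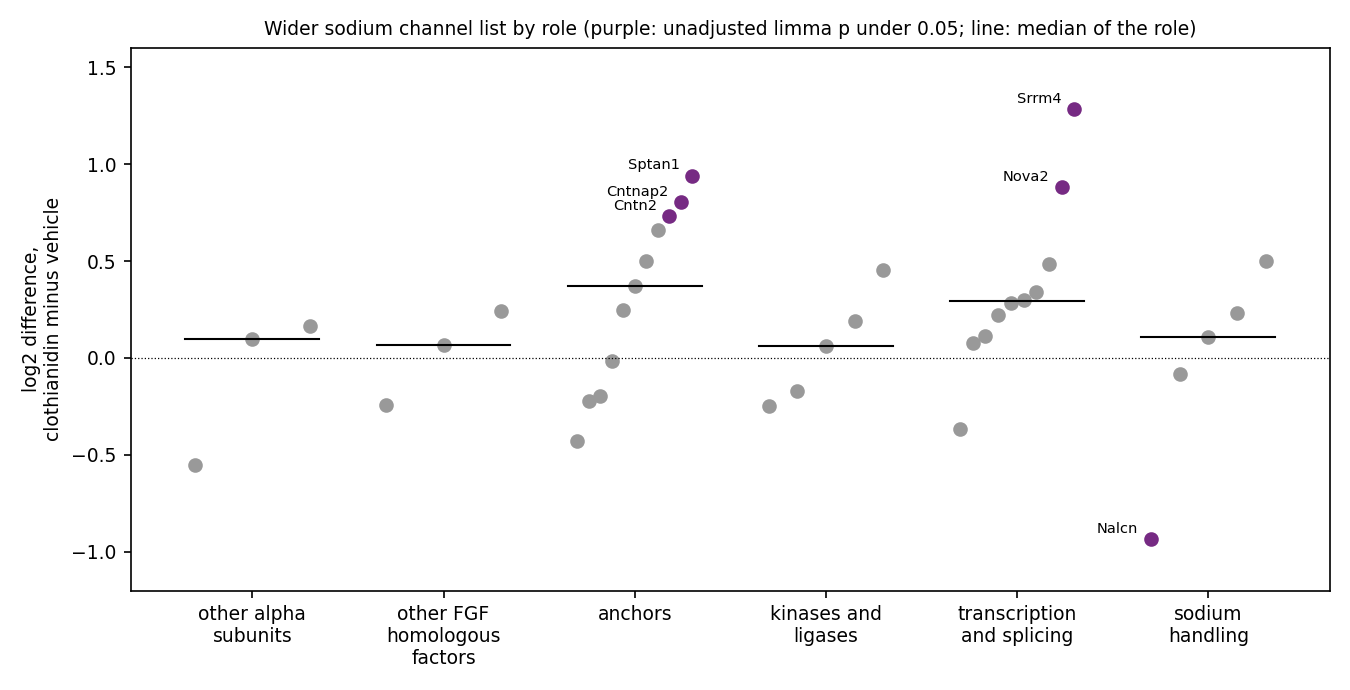
Log2 difference, clothianidin minus vehicle, for the 37 measured genes of the wider list by role, with a line at the median of each role and names for the 6 genes at an unadjusted limma p under 0.05. Srrm4 is highest at 1.28 and Nalcn lowest at -0.935, and 26 of the 37 lie above 0.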

How the data were processed

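Log2 probe set values were deposited to 2 decimals and were made with the RMA algorithm by the authors, according to the submitters' processing notes. The sources used here give no version or settings for it, and base 2 was assumed for the logarithm. Deposited values reached 19.91, and 738 lay above 16, the log2 ceiling of a 16-bit scanner value, so folds rest on the deposited scale. Without scanner files the signal over background is not known. The number of arrays limits the precision.

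Probe sets were named from the platform annotation, which can be old (19572 of 22206 with 1 symbol, 0 with several, 2634 unnamed). For genes with several, the highest mean over the arrays was kept. Samples were grouped by title. The labels give no separate origin beyond separate samples, so p-values reflect only how far these samples spread, and that spread may be technical. Limma takes the spread of a gene in large part from all probe sets together, so its standard errors do not follow the printed SDs alone. No batch is given.

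All probe sets were fitted with limma 3.58.1 in R 4.3.3 (lmFit, eBayes, Benjamini-Hochberg), with 5.96 prior and 2 residual degrees of freedom. The procedure was also run on simulated arrays drawn from the model that limma assumes, with independent errors. That run cannot show how the fit fares under shifts shared across an array. The genes and lists were chosen with earlier results of these data known. All 8 measured genes were named. From the wider list, other alpha subunit and FGF homologous genes, the 2 largest differences of each role and every gene at an unadjusted p under 0.05 were named. The measured part of that list was 37 of 44 genes. Alternatives were centring, quantile normalization, other variance moderation, level filters, 1 probe set per gene and leaving out each array.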

Additional observations from a re-analysis of the deposited data

How the results depend on the processing

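No probe set passed the adjusted threshold in limma with all arrays, after centring, quantile normalization, an intensity trend, level filters or 1 probe set per gene. The fit without moderation calls every probe set with equal values within each group and unequal means. How many of the calls without moderation were such probe sets was not tested. There were 8 calls without moderation, and 0 to 1 with 1 array left out, the single call being Ttr without clothianidin replicate 6 (log2 difference 8.28, adjusted p = 0.0133). The count at an unadjusted p under 0.05 was 464 with the filter at the median level, where fewer probe sets were tested, and 576 (without clothianidin replicate 6) to 1276 with 1 array left out, against 940. The count at 1.5-fold or more without overlap was 206 at 2-fold and 2922 to 4120 with 1 array left out, where fewer arrays can overlap, against 1689. The median over the 8 genes ran from -0.31 without vehicle replicate 9 to 0.14. After quantile normalization Scn1a, Scn2a and Scn2b turned to -0.038, -0.023 and -0.027. With 1 array left out, signs turned for Scn1a (-0.095 to 0.185), Scn2a (-0.365 to 0.555), Scn8a (-0.11 to 0.36), Scn2b (-0.08 to 0.21), Scn3b (-0.255 to 0.275), Scn10a (-0.05 to 0.25), Fgf13 (-0.16 to 0.29) and Slc8a2 (-0.24 to 1.24). Apart from the smaller tables and fewer arrays named, the cause was not tested. Alternatives for the ratios of Scn8a to Scn4b and of the alpha class to Fgf14 were chosen after seeing the data. No paired analysis was possible because the groups share only replicate number 7. The other 15 of the 23 gene differences kept their sign under centring, quantile normalization, each moderation and each array left out, and under the level filters where the gene passed them. Leaving out arrays for the wider list, the marker lists and the other gene pairs was added after seeing the data.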
